A study of Homo sapiens with 4 samples.

Results

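The genes described here are those named for the small subunit of the mitochondrial ribosome, most of which encode its proteins (MRPS18A and MRPS30 are now placed in the large subunit), and the question is where the oestrogen-related receptor ERRα sat on them. Members were all protein-coding genes whose symbol is MRPS followed by a number in the RefSeq gene table (GRCh38.p14), plus DAP3, PTCD3, AURKAIP1 and CHCHD1, which gave 32 of 20037 protein-coding genes on chromosomes 1 to 22, X and Y. The data are ChIP-seq peak lists from MDA-MB-231, an established line of invasive triple-negative human breast cancer cells, grown without any treatment named in the labels. ERRα was precipitated in 2 replicates, and another 2 libraries, the inputs, were made without antibody. The labels do not say whether the replicates came from separate cultures, so the spread between them may be technical. All 4 come from the same unmodified line, so no group differs in genotype or treatment, and the inputs serve as the background of the authors' peak calls. The lists held 14072 peaks in replicate 1 and 12659 in replicate 2, and 10059 peaks matched between them. A reproducible peak is here a matched one that kept within the IDR limit of 0.05, the irreproducible discovery rate, and there were 5070 of these. Folds are those in the authors' lists, the enrichment of ChIP over input background at the summit.

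Mitochondrial ribosomes translate the few messages of the mitochondrial genome, which encode core subunits of the respiratory chain and ATP synthase, while nearly all proteins of the ribosome itself are encoded in the nucleus and imported. The small subunit binds the message and checks the codon against the tRNA. Part of its proteins have counterparts in the bacterial small subunit, and the others are found in mitochondria only. ERRα is an orphan nuclear receptor known as a regulator of nuclear genes for mitochondrial energy metabolism. It binds the extended core TCAAGGTCA. Promoters of genes for mitochondrial proteins are also known for sites of the ETS factor GABP and of nuclear respiratory factor.

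The sequences just before the starts of members with an ERRα summit are given first, as part of the promoter windows searched for motifs below. Shown are the last 100 bases before the most upstream listed start of 6 members, 5′ to 3′ in the direction of transcription, from RefSeq (GRCh38.p14). No other annotated gene covers these bases. Capitals mark AGGTCA, the core that nuclear receptors bind, or CCGGAAG, the core of ETS factors, on either strand. The 100 bases before the starts of AURKAIP1 and MRPS33 held neither core and are not shown. Their start summits had higher mean folds than that of MRPS31, which was thus not chosen by fold alone. The bases shown for MRPS25, MRPS5 and MRPS15 held neither core. Those before MRPS7, which also had a reproducible start summit, and before MRPS16 and MRPS34 overlap another annotated gene and are not shown. Those of MRPS6, MRPS12, MRPS27 and CHCHD1 were left out too. MRPS25, MRPS5, MRPS15, MRPS30 and MRPS22 had a reproducible summit at a listed start. MRPS31 had a weaker matched summit there that was not reproducible. In MRPS22 and MRPS5 the reproducible summit was at an inner start, 501 bp and 382 bp downstream of the start whose sequence is shown. The matched start summits of MRPS30, MRPS31, MRPS15 and MRPS25 lay 6, 45, 97 and 178 bp downstream of the start. None of these matched summits thus lies in the bases shown.
MRPS25 (chr3:15065316-15065415, minus strand): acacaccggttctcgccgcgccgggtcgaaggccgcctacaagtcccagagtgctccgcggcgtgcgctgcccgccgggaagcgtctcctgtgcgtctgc
MRPS5 (chr2:95122004-95122103, minus strand): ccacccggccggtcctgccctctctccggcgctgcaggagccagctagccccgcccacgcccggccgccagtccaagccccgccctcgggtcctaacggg
MRPS15 (chr1:36464385-36464484, minus strand): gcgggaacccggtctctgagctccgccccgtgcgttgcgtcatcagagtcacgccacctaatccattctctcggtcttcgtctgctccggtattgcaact
MRPS30 (chr5:44808847-44808946, plus strand): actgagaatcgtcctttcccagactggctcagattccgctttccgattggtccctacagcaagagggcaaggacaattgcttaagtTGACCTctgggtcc
MRPS22 (chr3:139343894-139343993, plus strand): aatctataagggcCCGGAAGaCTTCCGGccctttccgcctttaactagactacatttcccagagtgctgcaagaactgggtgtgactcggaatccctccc
MRPS31 (chr13:40771191-40771290, minus strand): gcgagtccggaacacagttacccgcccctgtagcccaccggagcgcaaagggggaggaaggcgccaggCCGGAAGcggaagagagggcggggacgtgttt

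A second set shows 30 bases around each nuclear receptor core that lay in a promoter window of a member with a matched summit at its start. These run along the strand that reads the core, which capitals mark.
MRPS33 (chr7:141014906-141014935, minus strand): cgtgggtgaggAAGGTCAggtctaggtaag
MRPS22 (chr3:139344556-139344585, plus strand): aactaggttggAAGGTCAgggaagggttcc
MRPS30 (chr5:44808921-44808950, minus strand): ttccggacccagAGGTCAacttaagcaatt
CHCHD1 (chr10:73782019-73782048, plus strand): aggggtcacgcgAGGTCAcgcacggaaccg

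ERRα peaks were frequent at the starts of these genes, and most were low. A start was listed for 31 of the 32 members (MRPS28 had none), and a gene is called bound where a reproducible summit lay within 1 kb of a listed start. Bound by this rule were 6 of 31 members (19.4%, exact 95% interval 7.45 to 37.5), beside 4.51% of the 15843 protein-coding genes with a listed start. Counting every matched summit, with or without a passed IDR, 15 of 31 members (48.4%, 30.2 to 66.9) had one at the start, beside 9.05% of all. In the list of replicate 1 alone the count was 16, beside 12.7% of all genes, and in that of replicate 2 it was also 16, beside 11.2%. Peaks with a −log10 q of at least 5 left 13 members in replicate 1, beside 9.85% of all, and 14 in replicate 2, beside 9.09%. At the stricter IDR of 0.01 there were 3, namely MRPS25, MRPS5 and MRPS30, beside 3.59% of all. These intervals cover counting error over genes, which are not independent, and there were 2 ChIP libraries, so no test between conditions could be made.

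MRPS25, which encodes a protein found in mitochondrial ribosomes only, carried the strongest of these peaks. Its fold was 44.2 in replicate 1 and 39.5 in replicate 2 (mean 41.9 ± 3.31, SD, n = 2), and 93.8% of the reproducible peaks of the genome were weaker. The peak spanned chromosome 3 from 15064445 to 15065549 with its summit inside the gene, 178 bp downstream of the start. MRPS5, the counterpart of a bacterial protein that shapes the message entry channel, had folds of 17.9 and 11.6 (14.7 ± 4.43), and its peak ran on chromosome 2 from 95121299 to 95122092. The replicate values of MRPS25 lay above both of MRPS5, and those of MRPS5 differed from each other more than those of any other bound member.

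The remaining 4 bound members had lower peaks. MRPS15, whose bacterial counterpart binds the ribosomal RNA of the small subunit early in assembly, had folds of 8.75 and 11.7 (chromosome 1, 36464001 to 36464546), with 27.5% of the reproducible peaks weaker. MRPS30 had 9.65 and 9.71 (chromosome 5, 44808735 to 44809593), with the summit 6 bp from the start. Despite its name, the MRPS30 protein is now placed in the large subunit. MRPS7, the counterpart of a bacterial protein in the head of the small subunit, had 8.93 and 8.12 (chromosome 17, 75261547 to 75262257). MRPS22, another protein found in mitochondria only, had 8.42 and 7.34 (chromosome 3, 139343973 to 139344708), with 2.39% of reproducible peaks weaker. The 2 values of MRPS30 fell between those of MRPS15 and above those of MRPS7 and MRPS22. MRPS7 and MRPS22 overlapped. The MRPS22 peak was also closest to the IDR limit, with a score of 553 where 540 is the limit. Its summit was 56 bp from the third and innermost of its listed starts and 501 bp from the most upstream one.

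**Figure D1:**
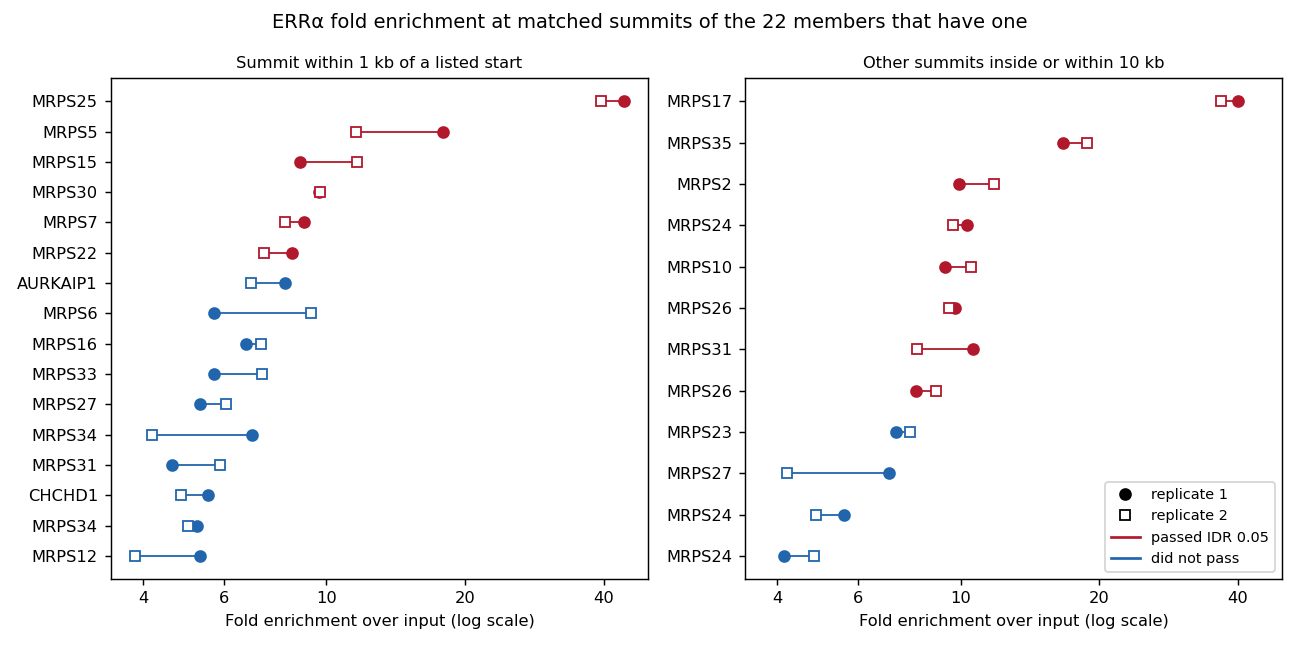
Fold enrichment over input (x axis, log scale) of each matched summit of the 22 members that had one, in replicate 1 (filled circles) and replicate 2 (open squares), for summits at a listed start (left) and elsewhere inside the gene or within 10 kb (right). Red marks summits that passed an IDR of 0.05 and blue those that did not. MRPS25 at the start and MRPS17 away from it stand near 40, and most other summits lie under 12.

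A further 9 members had a matched summit at the start that did not pass IDR. The highest mean was that of AURKAIP1, a small protein first described as a partner of the mitotic kinase Aurora A, with folds of 8.15 and 6.85 and an IDR score of 473. MRPS16, with a bacterial counterpart, had 6.70 and 7.22. MRPS33, found in mitochondria only, had 5.71 and 7.25. The lowest −log10 q of these 3 members was 5.65, for MRPS33 in replicate 1.

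CHCHD1, a small twin-cysteine protein of the subunit, had folds of 5.54 and 4.85. MRPS12, the counterpart of a bacterial protein at the decoding centre, had the lowest mean, with 5.33 and 3.85 and a −log10 q of 1.71 in replicate 2. MRPS27, an RNA-binding protein with pentatricopeptide repeats, had 5.33 and 6.04, and MRPS31 had 4.63 and 5.87. MRPS34 had a summit 22 bp from the start (5.24 and 5.01) and another inside the gene at 846 bp (6.88 and 4.19), which was nearer to the start of its neighbour EME2. MRPS6 had 5.71 and 9.27, with the summit 681 bp before the start. At MRPS6 and at the inner summit of MRPS34 the replicates differed most among these 9 members, and in opposite directions.

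In 2 more members a summit at the start was called in a single replicate. PTCD3, a pentatricopeptide repeat protein of the small subunit, had a peak in replicate 2 with a fold of 6.61 and a −log10 q of 9.79, its summit 5 bp from the start. MRPS2 had one in replicate 1 with a fold of 4.57 and a −log10 q of 3.01, at 16 bp. The same places had no called peak in the other replicate, whose fold there is not known.

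The start summits of these genes lay close to the start itself. Of the 16 matched summits within 1 kb of a member's start, 14 were within 200 bp (87.5%, exact 95% interval 61.7 to 98.4), and their median distance was 53.5 bp. Of the 1288 matched summits at the starts of all protein-coding genes, 34.5% were within 200 bp, with a median distance of 328 bp. The exceptions were MRPS6 and the inner summit of MRPS34. With the most upstream start of each gene in place of the nearest, a setting added after the values were seen, 12 of 16 (75%) were within 200 bp, beside 31.7% of all. On the gene's own side of the start were 10 of the 16 summits (62.5%), beside 53% of all. At AURKAIP1, MRPS12, MRPS16, MRPS27, MRPS30 and the outer summit of MRPS34, the replicates put the summit on opposite sides of the start. The side of these summits comes from the midpoint only. The member summits were also lower. Their median mean fold was 7.22, beside 8.52 for all start summits, and 37.5% passed IDR, beside 49.8%. None of these differences was tested.

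**Figure D2:**
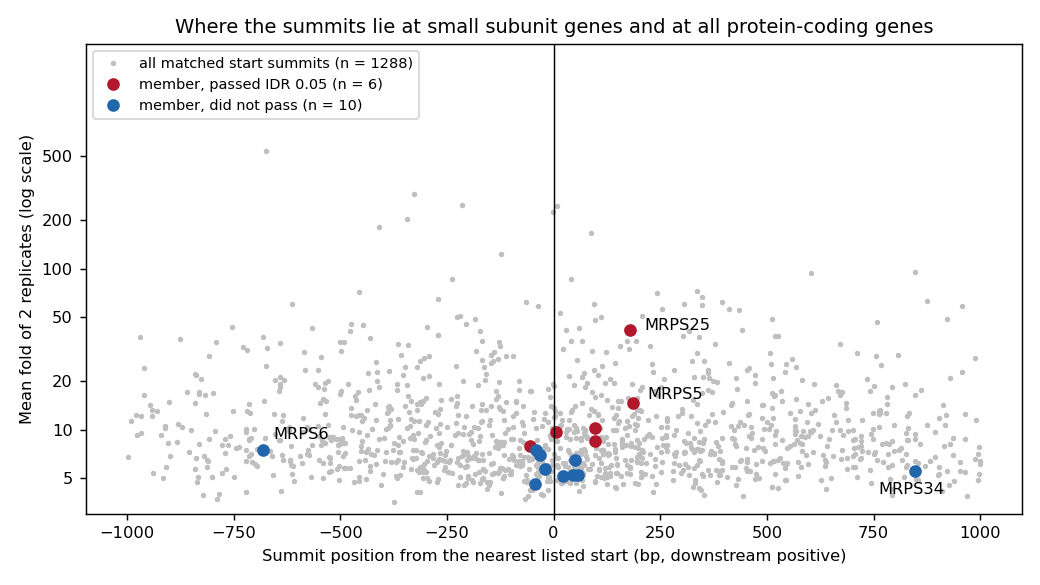
Mean fold of the 2 replicates (y axis, log scale) against the distance of the summit from the nearest listed start (x axis, bp, downstream positive), for all 1288 matched start summits (grey) and the 16 at member starts (red passed IDR 0.05, blue did not). The member summits gather within 200 bp of the start except at MRPS6 and the inner summit of MRPS34.

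Several of these starts face a neighbouring gene, so the peak cannot be given to one gene alone. Of the 16 start summits, 6 lay within 1 kb of a listed start of another protein-coding gene. MRPS12 shared its summit with SARS2, the mitochondrial seryl-tRNA synthetase, and MRPS27 with PTCD2, another mitochondrial pentatricopeptide repeat gene. MRPS7 shared it with GGA3, a Golgi sorting adaptor, MRPS6 with the inositol transporter gene SLC5A3, and MRPS34 with EME2 and, at its inner summit, NME3. The peaks of MRPS25, MRPS5, MRPS15, MRPS22, MRPS30 and AURKAIP1 had no other protein-coding start or gene end within 1 kb.

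Away from the starts, another 7 members had a reproducible summit inside the gene or within 10 kb, and no reproducible one at the start. With them, 13 of 32 members (40.6%, exact 95% interval 23.7 to 59.4) had a reproducible summit by this wider rule, beside 18.3% of all protein-coding genes. For matched summits the count was 22 of 32 (68.8%), beside 30.8%. Each replicate's own list gave 23 members, beside 38.9% of all genes in replicate 1 and 35.9% in replicate 2. Longer genes have more room for a summit. The median length was 11.7 kb in members and 24.1 kb in all genes. An effect of length on these shares was not tested.

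The strongest of these summits belonged to the interval of MRPS17, a counterpart of a bacterial rRNA-binding protein, with folds of 39.96 and 36.7 (38.3 ± 2.33, SD, n = 2). It lay 8.39 kb beyond the end of MRPS17 and 304 bp from a start of NIPSNAP2, a gene for another mitochondrial protein, and was nearer to that start than to MRPS17. MRPS35 had a summit 21.7 kb into the gene, with folds of 16.7 and 18.8. MRPS2, with 9.91 and 11.8, had its summit inside the gene 2.16 kb from the nearer start. Both values of MRPS35 were above all those of MRPS2.

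Summits outside the gene were found for the other 4. For MRPS10, whose bacterial counterpart sits in the head of the subunit, it lay 3.37 kb before the start, with folds of 9.27 and 10.6. For MRPS24 it lay 1.08 kb beyond the end (10.3 and 9.64), and 2 weaker matched summits, of mean folds 5.22 and 4.48, stood 1.11 kb inside and 4.02 kb before the start. MRPS31 had one 5.74 kb before its start (10.7 and 8.06), higher in each replicate than the summit at the start itself. MRPS26 had 1 on either side, with 9.72 and 9.46 at 1.59 kb beyond the end and 7.99 and 8.86 at 4.41 kb before the start. The latter was nearer to the start of GNRH2, the gene of a neuropeptide hormone, at 1982 bp. MRPS23 had a matched summit 1.36 kb beyond its end (7.25 and 7.78) that missed IDR 0.05 with a score of 524. Inside MRPS27, 87.2 kb from its start, stood a weaker matched summit (6.99 and 4.21). The reproducible summits of MRPS24, MRPS10, MRPS26, MRPS31 and MRPS2 away from the start had mean folds of 8.43 to 10.9. The median mean fold of the 6 reproducible start summits of members was 9.95, and that of all 16 matched start summits 7.22.

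Among the matched peaks the replicates differed little in scale. Of the 28 matched summits of members, 15 were higher in replicate 1. The median size of the log2 ratio between replicates was 0.20, beside 0.22 over all 10059 matched peaks.

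**Figure D3:**
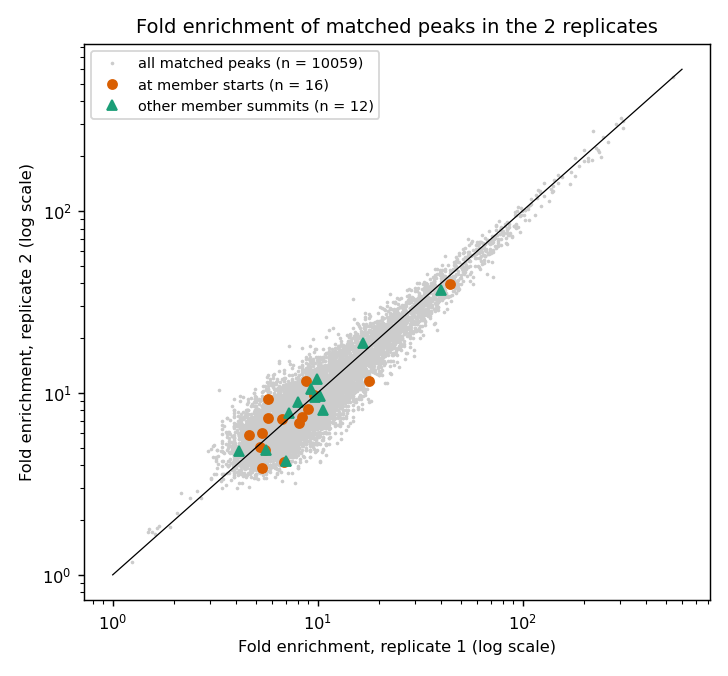
Fold enrichment in replicate 1 (x axis) and replicate 2 (y axis), both on log scales, for all 10059 matched peaks (grey), the 16 at member starts (orange circles) and the 12 other member summits (green triangles). The line marks equal values. The member peaks lie on both sides of it, most of them among the lower peaks.

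Of the 32 members, 8 had no summit in any list inside the gene or within 10 kb. These were DAP3, the GTP-binding protein of the subunit head that is also known as a mediator of cell death, MRPS9, MRPS11, MRPS14, MRPS28 and the MRPS18A, MRPS18B and MRPS18C genes. The last 3 are the human relatives of a single bacterial protein, and all 3 lacked a summit. In the split by kind below, only MRPS18C is counted as its counterpart. There MRPS18B is counted as found in mitochondria only and MRPS18A as placed in the large subunit. The nearest reproducible summit was 202 kb from DAP3, 278 kb from MRPS9, 138 kb from MRPS11 and 661 kb from MRPS14. MRPS28 had one at 37.0 kb. MRPS18A had a matched summit at 19.3 kb that did not pass IDR, the first beyond the 10 kb limit, and MRPS18B one at 21.2 kb. MRPS21 had no matched summit but a replicate 1 peak 1.67 kb before the start, with a fold of 5.71. A gene without a called peak may still be bound below the calling threshold.

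Members were also split by kind of protein, to be read beside 4.51% of all genes for reproducible and 9.05% for matched start summits. Of the 16 members with a bacterial counterpart, 3 were bound at the start and 6 had any matched summit there. The 16 include MRPS28, which had no listed start and so could not be called. Of the 14 found in mitochondria only, 2 were bound and 8 had a matched summit at the start. The other 2 members, MRPS18A and MRPS30, are now placed in the large subunit. The difference between the kinds was not tested.

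The small subunit was then set beside other groups of the translation machinery. Mitochondrial translation factors had the highest share bound at the start, with 6 of 15 (40%, exact 95% interval 16.3 to 67.7), beside 4.51% of all genes. A matched summit there was found for 10 of 15, beside 9.05% of all. The strongest were MTRF1L, a release factor (17.5 and 12.6), TACO1, an activator of cytochrome oxidase translation (13 and 12.7), and OXA1L, which inserts new proteins into the inner membrane (12.7 and 10.8). None of 8 assembly factors of the small subunit, such as ERAL1 and NOA1, had a matched summit at the start (interval up to 36.9%). That interval holds the 9.05% of all genes, so the count does not set these genes apart. In replicate 1's own list 1 of these 8 did (12.5%), near the 12.7% of all genes.

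The large subunit had 6 of 43 genes bound at a listed start (14%, 5.3 to 27.9), led by MRPL48 (35 and 33.1), MRPL12 (31.9 and 28) and MRPL47 (21.8 and 31.6). With MRPS18A and MRPS30 counted in the large subunit, a setting added after the values were seen, the shares were 5 of 29 (17.2%) in the small and 7 of 45 (15.6%) in the large subunit. At an IDR of 0.01 they were then 2 of 29 (6.90%) and 6 of 45 (13.3%). Without strand, by a reproducible summit within 1 kb of either end of the gene, it had 12 of 50 (24%) and the small subunit 6 of 32 (18.8%), beside 4.49% of all, so the order of the subunits turned with the rule. Any matched summit at either end was found for 15 of 32 small subunit genes, beside 8.85% of all. Proteins of the cytosolic small subunit had 1 of 25 bound (4%, 0.101 to 20.4), namely RPS14 (8.93 and 8.12), which is near the share of all genes. With every matched summit counted, 7 of these 25 (28%) and 10 of 43 large subunit genes (23.3%) had one at the start, beside 9.05% of all genes. By that count the cytosolic share was 3.10 times that of all genes. By summits at a start or at either end, the intervals of the small subunit overlapped those of each other group. By summits inside the gene or within 10 kb they did not overlap those of the cytosolic small subunit, with 13 of 32 against 1 of 32 genes for reproducible summits (23.7 to 59.4% against 0.0791 to 16.2%) and 22 of 32 against 9 of 32 for all matched ones. For all matched ones they also did not overlap that of the assembly factors, with 1 of 9. By this wider rule the share of all genes was 18.3% for reproducible and 30.8% for matched summits. The cytosolic share of 28.1% for matched summits is near the latter. Cytosolic genes are shorter, with a median length of 4.48 kb, and no difference between groups was tested.

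**Figure D4:**
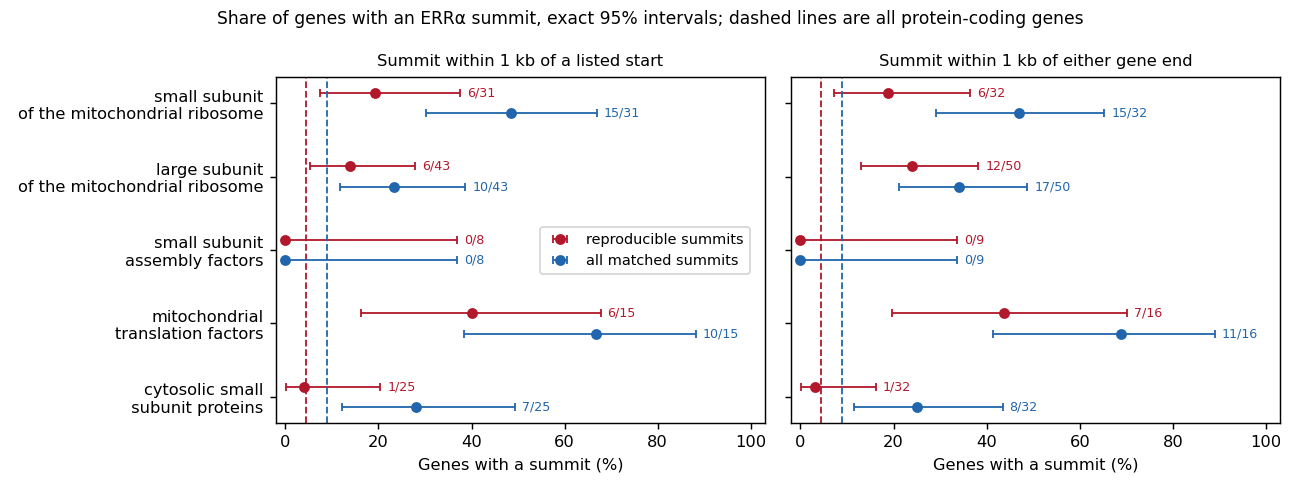
Share of genes (x axis, %) with a reproducible summit (red) or any matched summit (blue) within 1 kb of a listed start (left) or of either gene end (right), for 5 groups of translation genes, with exact 95% intervals and counts. Dashed lines give the share of all protein-coding genes. The small subunit stands right of its dashed line in all 4 counts, and its intervals overlap those of the large subunit.

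The motif search used RefSeq promoter windows of 250 bases before to 50 after each listed start, read on both strands. The full ERRα core TCAAGGTCA was in no window of the 31 members, beside 0.335% of the 15843 genes. Its last 7 letters, AAGGTCA, were found in 3 members (9.68%), MRPS21, MRPS22 and MRPS33, beside 4.26% of all and 12.3% of the 715 genes bound at the start. Its last 6, AGGTCA, which every AAGGTCA match also holds, were in 9 members (29%), beside 15.2% of all and 26.4% of bound genes. A match describes letters and not a bound site.

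In the 4 members that held AGGTCA and had a matched summit at the start, the distance between them was as follows, within windows that lie around the start by design. In MRPS33 the AAGGTCA was centred 20 bp from the matched summit, and in MRPS22 it was 75 bp away. In MRPS30 the AGGTCA was 17 bp from the summit, and in CHCHD1 72 bp. The 2 replicates' own summits stood 20 bp (CHCHD1) to 33 bp (MRPS30) apart in these members. These are the 4 stretches of 30 bases shown above. The members MRPS2 and MRPS17 also held AGGTCA, but their matched summits were kilobases away from the start. The summits of MRPS25, MRPS5, MRPS15, MRPS7 and CHCHD1 lay downstream of their windows, between 58 bp (CHCHD1) and 187 bp (MRPS5) from the nearest listed start. That of MRPS6, 681 bp before the start, and the inner one of MRPS34, 846 bp after it, were also outside the windows. The bases right under these summits were therefore not searched. Counted from the most upstream start, the MRPS5 summit was 382 bp into the gene. No genome sequence was used here.

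The ETS core CCGGAAG was more frequent. It was found in 13 of 31 members (41.9%), beside 16.5% of all genes and 26.3% of genes bound at the start, and in 7 of the 15 members with a matched start summit. Of the 6 bound members 1 held it, MRPS22, which held 3 matches. Of these, 2 on opposite strands stand 1 base apart in the sequence shown. All 3 were centred 493 to 585 bp from the matched summit of MRPS22, and the 2 shown lie outside its peak. MRPS34 held 3 matches, between 71 and 19 bases before the start. The palindromic motif of nuclear respiratory factor 1, in its perfect form, was in no member window, beside 1.99% of all. The CCAAT box was in 13 members (41.9%, beside 42.1%), and the GC box GGGCGG in 22 (71%, beside 64.3%). The median GC content of the windows was 60% in members and 62.3% in all genes. The 4 last-named motifs were chosen after the data had been seen, and no difference between members and other genes was tested.

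**Figure D5:**
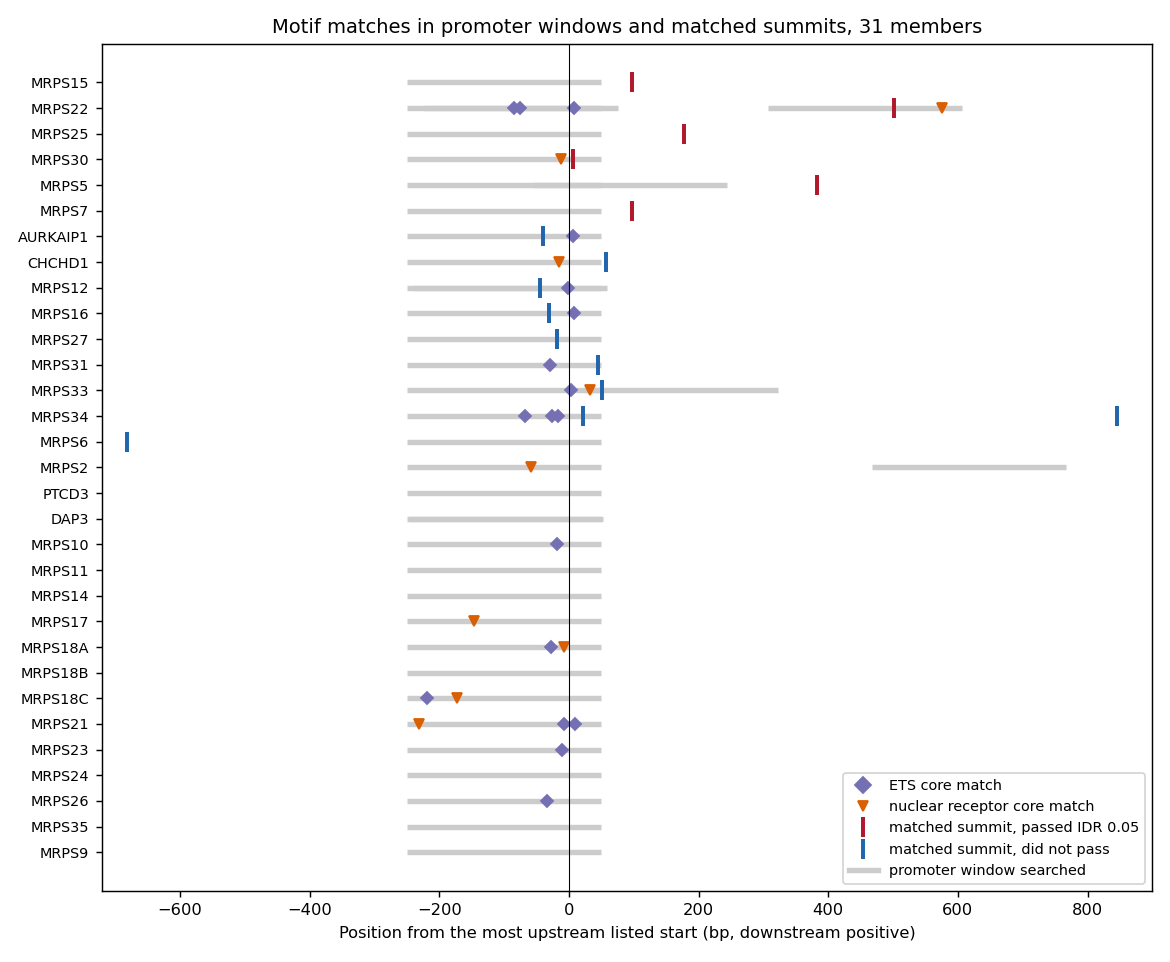
Promoter windows searched (grey bars) of the 31 members with a listed start, with ETS core matches (purple diamonds), nuclear receptor core matches (orange triangles) and matched summits that passed IDR 0.05 (red ticks) or did not (blue ticks), by position from the most upstream listed start (x axis, bp). Members are ordered by their call at the start. The summits of MRPS15, MRPS25, MRPS5, MRPS7 and CHCHD1 and the inner summit of MRPS34 stand to the right of their windows, and that of MRPS6 to the left.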

How the data were processed

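MDA-MB-231 cells were fixed with 1% formaldehyde, ERRα was precipitated with 5 µg of antibody, and paired reads of 81 bp were taken from ChIP and input DNA, per the labels' protocols. The submitters' processing notes name MACS2 2.2.6, Bowtie2 2.3.5 and Trim Galore 0.6.5, beside deepTools, SAMtools, Picard and build hg38, without settings. The authors deposited a peak list for each replicate, called against both inputs per the file names, with a fold enrichment (ratio), a −log10 p, a −log10 q and a score per peak. They also deposited a list of matched peaks with an IDR score from 154 to 1000. Replicate 1 had no −log10 q below 1.35 and replicate 2 none below 1.37. Sequencing depth is unknown here, because the labels print the read numbers without a clear exponent and the lists hold no reads per peak.

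Summits are those of the lists, counted from 1. The folds of a matched peak are those of each replicate's own overlapping peak, the highest where several overlap (95 of 10059 matched peaks, none of the 28 at members). A score of 540 or more, an IDR of 0.05, made a matched peak reproducible. Starts and strands came from the RefSeq promoter table (GRCh38.p14, which shares its chromosome coordinates with hg38). It lists 15843 of 20037 protein-coding genes. Gene ends came from the RefSeq gene table, which gives no exons, so summits inside a gene were not placed in exons or introns. The ETS, CCAAT box, GC box and nuclear respiratory factor motifs, the most upstream start alone and the count of MRPS18A and MRPS30 in the large subunit were added after seeing the data. Motifs were matched exactly on both strands in Python 3.11.15 with pandas 2.3.3. Intervals are Clopper-Pearson, from scipy 1.17.1. The counting was tested on simulated summits. Every member is named, with at most 3 bound genes of each other group. Members, lists and rules were chosen with earlier results of these data known. With 2 ChIP libraries and no value per peak in the inputs, no test was made, and an SD of 2 values is imprecise.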

Additional observations from a re-analysis of the deposited data

How the results depend on the processing

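The count of 6 members bound at the start was the same with a window of 500 bp and with distance to either gene end. It was 10 with a window of 5 kb, 13 by summits inside the gene or within 10 kb, 3 at an IDR of 0.01 (MRPS25, MRPS5 and MRPS30), 15 with all matched peaks, and 13 in replicate 1 and 14 in replicate 2 at a −log10 q of at least 5. In each replicate's own list, which leaves out the other replicate, it was 16. The share of members over that of all genes was 4.29, and ran from 2.22 (within 10 kb) and 2.70 (IDR 0.01) to 6.52 (500 bp), with 4.06 and 4.60 in the lists of replicate 1 and 2 alone. The share over that of the large subunit was 1.39, and 0.832 at an IDR of 0.01, 0.781 by either gene end and 2.08 with all matched peaks, so its direction was not stable. It was 1.71 in each replicate's own list, and 1.11 with MRPS18A and MRPS30 counted in the large subunit. Members with a matched summit within 10 kb numbered 22, and 18 within 1 kb and 23 in each replicate's own list. The median fold of the bound members was 9.95, with 10.7 in replicate 2 and 9.29 in replicate 1 alone. With 1 mismatch allowed, TCAAGGTCA was found in 1 member, MRPS12, beside 6.03% of all genes, and with none in 0. No paired analysis was possible because no result comes from a test between groups and the inputs have no list of their own.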

Other observations

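Of 62 annotated pseudogenes of small subunit genes, 0 had a matched summit inside or within 1 kb, beside 1.21% of all 17051 annotated pseudogenes, so a count of 0 is near the background. The transcribed pseudogene MRPS31P5 on chromosome 13 had a peak in replicate 1 alone, with a fold of 7.95.

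Low folds recur as identical values. In replicate 1 the summits of MRPS33, MRPS6 and MRPS21 had the same fold of 5.71 and the same −log10 q of 5.65, and 280 peaks of that list held exactly this fold, with a single −log10 q among them. Of the 30 replicate 1 peaks at members, 27 had a fold that at least 1 other peak of the list also had, as did 84.1% of all 14072. The start peaks of MRPS7 and of RPS14, on different chromosomes, shared both folds, 8.93 in replicate 1 and 8.12 in replicate 2. The order of members with such low folds is therefore coarser than the printed decimals.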
